A study of Mus musculus with 6 samples.

Results

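Muscle stem cells of old mice that stained high for glutathione were compared with muscle stem cells of young mice. The comparison takes in 4 of the 6 libraries of the series, 2 in each group, and it was made over the 10609 of 12067 listed genes that reached 1 RPKM in at least 2 of the 6 libraries. RPKM is the number of reads of a gene scaled by its length and by the size of the library, so that levels can be set beside each other between genes as well as between libraries. All animals were C57BL/6 males. The young mice were 4 months old and the old mice 23 months old. Cells of the limb muscles were sorted as CD45-, CD31-, Sca1- and VCAM+, stained with 5 uM ThiolTracker Violet, a dye of reduced thiols that reports glutathione, and sorted again. From young mice every stained cell was collected, since nearly all of them were high for glutathione, and each library holds the cells of 1 animal. From old mice the stained cells were divided, and each library holds cells pooled from 2 animals. The old GSH-high libraries hold the brighter part, and the remaining 2 libraries of the series, old GSH-low, hold the dimmer part and are given beside the values where they add to them. Age, the pooling of animals and the division of the stained cells all differ between the groups compared and cannot be told apart.

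Muscle stem cells, also called satellite cells, lie between a muscle fibre and its basement membrane, rest in quiescence in healthy adult muscle and divide after injury to supply new myonuclei. Glutathione is a small peptide of glutamate, cysteine and glycine whose free thiol reduces peroxides and conjugates reactive compounds. In aged tissues, genes of interferon signalling and of inflammation are often raised, and stem cells of old muscle are known to re-enter the cell cycle late and to regenerate poorly.

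Reads recovered from the RPKM values numbered 62964549 and 59911346 in the young libraries, 68677837 and 60661325 in old GSH-high and 50625573 and 46919489 in old GSH-low. The cells carried the genes of satellite cells in every library. Pax7, the transcription factor that defines the lineage, was at 7.93 and 7.64 RPKM in the young libraries and 8.09 and 8.65 in old GSH-high, and Cdh15 (M-cadherin) at 83 and 83.5 (young) and 95.4 and 94 (old GSH-high) RPKM. Of the antigens the sort excluded, Ptprc (CD45) stayed at or under 0.109 RPKM in these 4 libraries, Pecam1 (CD31) was at 1.81 and 3.02 RPKM in young and 6.67 and 6.86 in old GSH-high, and Ly6a (Sca1) at 9.2 and 8.42 (young) and 24.8 and 27.9 (old GSH-high). Principal components 1 and 2 of the 6 libraries held 72.7% and 16.8% of the variance.

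Between old GSH-high and young, 3051 of 10609 genes changed (28.8%; limma-trend on log2(RPKM + 1), two-sided, Benjamini-Hochberg adjusted p under 0.05). Of these, 1598 rose (15.1% of genes tested) and 1453 fell (13.7%), so that 52.4% of the calls were rises. That share was 62.9% (1917 rises and 1130 falls) when the libraries were scaled by size alone. It was 42.4% (1625 and 2210) when a trend over gene length and GC content was removed. With a filter of at least 5 RPKM it was 43.5% (894 and 1160). The balance of rises and falls thus depends on the scaling and on the filter. The median log2 fold change of all genes was -0.00. Rises were the larger changes: 342 genes rose at least 2-fold on the fitted scale (3.22%) and 90 fell at least 2-fold (0.848%). All 3051 called genes had groups that did not overlap, as did 7011 of all genes tested. Fold changes are given on the log2(RPKM + 1) scale, where the added 1 draws in the changes of genes near or under 1 RPKM, with the standard error of the fit. A gene under 1 RPKM in both young libraries entered the test only through the old libraries, so that the filter favoured a rise for it. In sorted bulk material fewer cells of a type and less RNA per cell cannot be told apart. With 2 libraries a group, an exact permutation test of 1 gene cannot go below p = 0.333, so that every p rests on the spread pooled across genes. The number of changed genes was 1493 when old GSH-high replicate 1 was left out and 1816 when replicate 2 was, against 2351 and 3802 for young replicates 1 and 2.

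**Figure D1:**
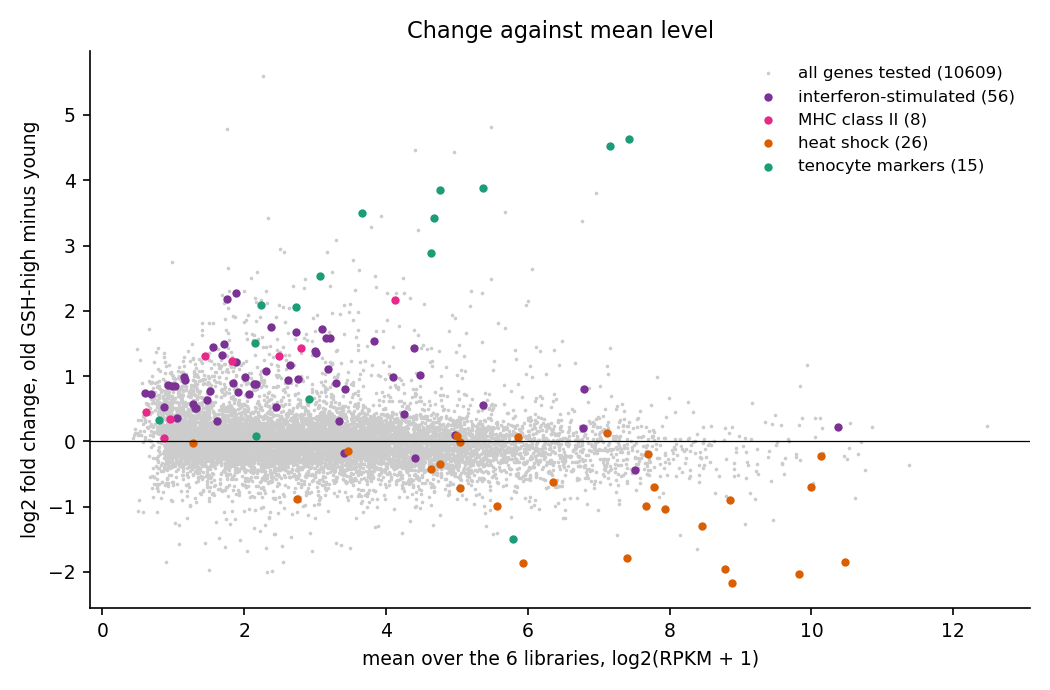
Log2 fold change from young to old GSH-high (y axis) against the mean of log2(RPKM + 1) over the 6 libraries (x axis), 1 point per gene tested, with 4 gene lists in colour and the number of their tested members in the legend. Heat shock genes lie among the largest falls at high levels, down to -2.16 for Hspa1a, while interferon-stimulated, MHC class II and tenocyte genes lie above 0 for the most part.

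Interferon-stimulated genes rose in a larger share than any other pathway list. These genes are switched on by type I and type II interferons through the STAT and IRF transcription factors and encode antiviral proteins. Of 56 tested, 49 rose (87.5%, against 15.1% of all genes tested) and 1 fell. The median log2 fold change was 0.88 against -0.00 over all genes, and 19 rose at least 2-fold, as 3.22% of all genes did. With a filter of at least 5 RPKM, which leaves fewer of them to test, 26 rose. Ifi204 (a DNA sensor of the p200 family; chromosome 1, 173747293 to 173766943 on GRCm38) went from 0.263 and 0.339 RPKM in the young libraries to 5.12 and 5.43 in old GSH-high, a log2 fold change of 2.27 ± 0.11 (adjusted p = 3.22e-06). In old GSH-low it was at 5.6 and 4.67 RPKM, so that the old libraries lay together and far above the young ones. Rtp4, a chaperone of receptors induced by interferon, rose from 1.19 and 1.13 to 6.27 and 6.28 RPKM (1.75 ± 0.09, adjusted p = 3.77e-06). Irf7, the transcription factor that amplifies the type I response, rose from 3.53 and 3.11 to 10.6 and 9.54 RPKM (3.04-fold; adjusted p = 2.68e-05) and was at 10.3 and 9.69 in old GSH-low.

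Ifit3 and Ifi47 stood higher still in old GSH-low. Ifit3, which binds foreign RNA together with its IFIT partners, was at 1.47 and 1.57 RPKM in young, 6.74 and 7.37 in old GSH-high and 12.7 and 14.4 in old GSH-low (old GSH-high minus young 1.68 ± 0.10, adjusted p = 8.14e-06). Ifi47, a GTPase that acts on vacuoles of pathogens, went from 2.22 and 2.24 to 10.1 and 9.33 RPKM (1.73 ± 0.08, adjusted p = 3.77e-06). Both also passed the test between the old fractions, in which 571 of 10609 genes did so (5.38%). Over the list, the old GSH-low minus old GSH-high fit called 9 rises and 4 falls (3.69% and 1.69% of all genes) with a median of 0.03.

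Components of the pathway itself moved in both directions. Jak2, a kinase of cytokine receptors, rose from 16.8 and 20.3 to 28.6 and 26.7 RPKM (adjusted p = 0.00439). Ifngr2, a chain of the receptor for interferon gamma, fell from 18.9 and 18.4 to 9.61 and 10.5 RPKM (-0.83 ± 0.09, adjusted p = 3.53e-04), and Socs1, which shuts off JAK signalling, fell from 40.6 and 36.9 to 23.2 and 22.6 (-0.73 ± 0.09, adjusted p = 4.11e-04). The 1 interferon-stimulated gene that fell was Ifitm2, from 249 and 201 to 164 and 164 RPKM, a call lost when old GSH-high replicate 1 was left out (adjusted p = 0.0961) or 2 (0.0862); 2 fell without young replicate 2. Of 22 genes of JAK and STAT signalling, 5 rose (22.7%, against 15.1% of all genes tested) and 2 fell (9.09%, against 13.7%). Of the receptor chains that pair with gp130, Osmr (oncostatin M receptor) rose from 27.8 and 36.7 to 77.7 and 78.8 RPKM (1.27 ± 0.12, adjusted p = 1.50e-04) and Lifr from 2.8 and 3.13 to 4.84 and 4.74 (0.55 ± 0.09, adjusted p = 0.00261), while Il6ra, at 1.17 and 1.23 (young) and 1.38 and 1.13 (old GSH-high) RPKM (adjusted p = 0.846), and Il11ra1, at 28.7 and 23.6 (young) and 26.9 and 25.8 (old GSH-high) (adjusted p = 0.916), did not pass. Nor did gp130 itself, Il6st, at 54.2 and 83.3 (young) and 82.3 and 74.7 (old GSH-high) RPKM (adjusted p = 0.397), which passed as a rise without young replicate 2 (adjusted p = 0.0143).

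Promoters were searched for the letters of the interferon response element. The 250 bases before the annotated start were searched on both strands for GAAANNGAA, the core of that element, in which N is any base. Matches of different motifs were counted separately and may overlap. It was found for 21 of the 36 risen list members with a promoter in the RefSeq table (58.3%), for none of the 5 members that were not called, and for 624 of 8329 genes tested (7.49%). Among all risen genes with a promoter the share was 11%, and among all fallen genes 7.95%. A match of letters is a description of the sequence and not of binding. The 200 bases before the start of 3 of these genes are printed 5′ to 3′ on the strand of the gene (RefSeq, GRCm38.p6), with each match of the core in capitals on either strand, overlapping matches running together: Ifit3 at chr19:34583329-34583528 (+), Isg15 at chr4:156200819-156201018 (-) and Igtp at chr11:58199356-58199555 (+). Isg15 (the ubiquitin-like modifier) and Igtp (a GTPase of the IRG family) were picked for printing after their values were seen.
Ifit3: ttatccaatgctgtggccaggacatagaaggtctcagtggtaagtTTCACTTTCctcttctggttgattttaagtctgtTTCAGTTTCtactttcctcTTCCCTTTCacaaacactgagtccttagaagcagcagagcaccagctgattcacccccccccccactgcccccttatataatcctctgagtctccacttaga
Isg15: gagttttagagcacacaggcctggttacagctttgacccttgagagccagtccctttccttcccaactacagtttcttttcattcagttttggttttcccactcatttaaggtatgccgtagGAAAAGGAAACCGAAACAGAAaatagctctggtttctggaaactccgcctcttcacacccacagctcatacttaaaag
Igtp: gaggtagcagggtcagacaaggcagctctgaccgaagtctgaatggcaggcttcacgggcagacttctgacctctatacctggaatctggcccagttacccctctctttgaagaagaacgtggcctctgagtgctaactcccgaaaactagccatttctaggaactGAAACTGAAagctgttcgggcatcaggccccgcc
Ifit3 and Isg15 hold 3 matches each, within 155 and 78 bases of the start, and Igtp holds 1. Isg15 rose from 10.3 and 8.18 to 26.9 and 26.2 RPKM (1.43 ± 0.11, adjusted p = 5.03e-05) and Igtp from 5.88 and 5.55 to 19.3 and 17.8 (1.54 ± 0.09, adjusted p = 1.10e-05).

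Genes that present peptides on MHC class I rose with them. Of 21 tested, 12 rose and none fell, with a median of 0.40. B2m (beta-2 microglobulin, the light chain shared by class I molecules) went from 674 and 548 to 1074 and 1120.5 RPKM (0.85 ± 0.12, adjusted p = 9.47e-04). H2-Q6, a class Ib heavy chain, went from 19.9 and 19.9 to 59.6 and 58 RPKM (1.52 ± 0.08, adjusted p = 4.53e-06), and reads of the H2 genes may be shared among near-identical family members. Nlrc5, the transactivator of class I genes, rose from 0.837 and 1.1 to 3.53 and 3.2 RPKM (1.15 ± 0.11, adjusted p = 1.51e-04). Psmb8, a catalytic subunit of the immunoproteasome, rose from 2.66 and 1.86 to 4.88 and 4.63 RPKM (adjusted p = 0.00139), and Psmb9 from 1.07 and 0.893 to 1.93 and 1.93 (adjusted p = 0.00343). They were the 2 risen members of the proteasome list, in which 7 of 37 fell (18.9%, against 13.7% of all genes tested). That count was 2 or 20 when young replicate 1 or 2 was left out, and 1 or 2 when old GSH-high replicate 1 or 2 was; without either old GSH-low library it was 4. Without young replicate 2, 1 class I gene passed as a fall. No class I gene passed the test between the old fractions.

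MHC class II genes, expressed by antigen-presenting cells, rose from low levels. Of 8 tested, 6 rose and none fell (median 1.27). Cd74, the invariant chain, was at 2.86 and 2.18 RPKM in young, 12.7 and 16.8 in old GSH-high and 98.4 and 92.8 in old GSH-low (old GSH-high minus young 2.16 ± 0.14, adjusted p = 1.49e-05). H2-Ab1 went from 1.51 and 0.822 to 4.11 and 5.49 RPKM (adjusted p = 3.80e-04) and H2-Aa from 0.212 and 0.309 to 1.59 and 2.39 (adjusted p = 4.71e-04). Markers of macrophages and neutrophils also rose from young to old GSH-high, but did not follow class II between the old fractions. All 13 tested rose (against 15.1% of all genes tested). The list summed to 14 and 13.3 RPKM in young, 77.1 and 77.6 in old GSH-high and 76.5 and 79.8 in old GSH-low. The class II list summed to 23.7 and 35.3 RPKM in old GSH-high and 170.2 and 158 in old GSH-low. A gene under 1 RPKM in both young libraries, as H2-Aa was, entered the test only through the old libraries. The filter favoured a rise for any such member, so these counts are no support by themselves. Lyz2 (lysozyme of myeloid cells) went from 2.36 and 4.95 to 21.3 and 29.1 RPKM, while Ptprc stayed at or under 0.109 and Adgre1, Csf1r, Mrc1 and Itgam of the list are not among the genes of the table. Lymphocyte markers summed to 1.2 and 1.12 RPKM in young, 2.38 and 3.57 in old GSH-high and 25.8 and 24.2 in old GSH-low; 1 of 5 rose between young and old GSH-high, and all 5 passed as higher in old GSH-low when the old fractions were compared. The part of such cells in these rises was not tested.

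**Figure D2:**
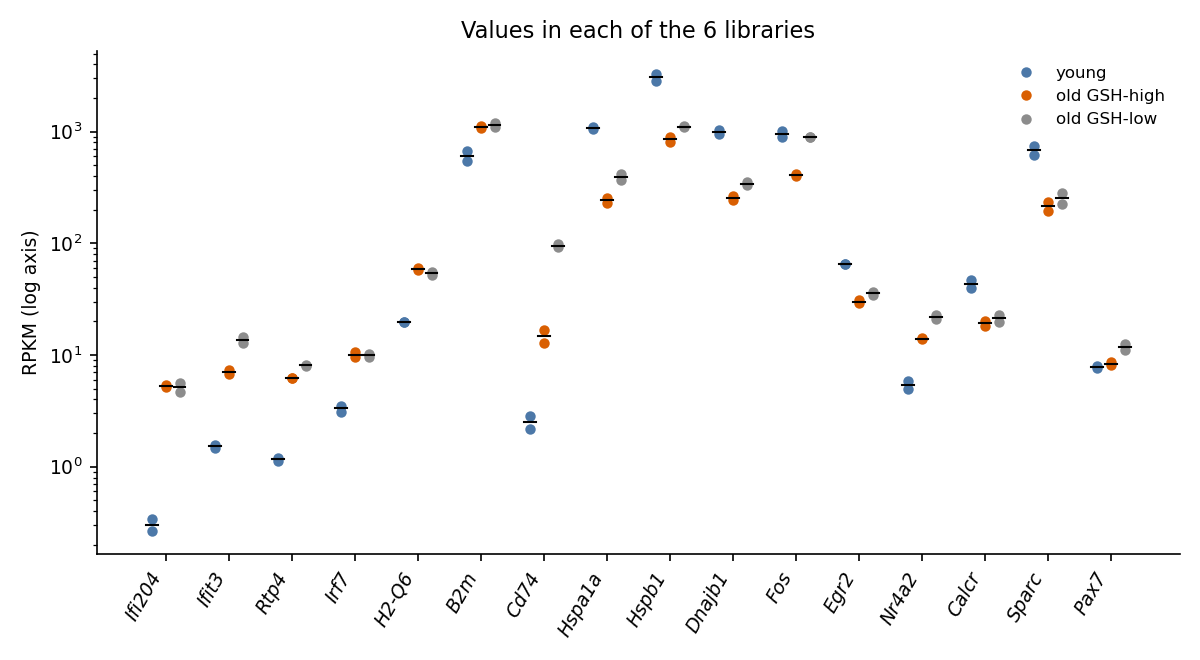
RPKM on a log axis (y axis) of 16 genes (x axis) in all 6 libraries, 1 point per library coloured by group, with the group mean as a bar. Ifi204, Rtp4, Irf7, H2-Q6 and B2m were at a common high level in the old fractions, Hspa1a, Hspb1 and Dnajb1 at a common low level with old GSH-low somewhat above old GSH-high, and Fos was low in old GSH-high alone.

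Heat shock chaperones fell, and Hspa1a and Hspa1b had the largest falls of all genes tested. They refold damaged proteins and are induced by the transcription factor HSF1 on heat and other protein-damaging stress. Of 26 tested, 18 fell (69.2%, against 13.7% of all genes tested) and none rose. The median log2 fold change was -0.71, and 8 fell at least 2-fold, as 0.848% of all genes did. Hspa1a (inducible HSP70; chromosome 17, 34969190 to 34972156) was at 1067 and 1105 RPKM in the young libraries and 254 and 231 in old GSH-high, a 4.48-fold fall (-2.16 ± 0.10, adjusted p = 3.22e-06). Its near-identical copy Hspa1b, with which reads may be shared, was at 1922 and 2052 (young) and 507 and 469 (old GSH-high) RPKM (-2.02 ± 0.10, adjusted p = 4.16e-06). In old GSH-low the pair was at 419 and 369 and at 804 and 714 RPKM, between the other groups and nearer to old GSH-high.

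The small heat shock protein Hspb1 (HSP27) fell from 3307 and 2817 to 815 and 890.3 RPKM (-1.84 ± 0.11, adjusted p = 1.10e-05). Dnajb1 (HSP40), the co-chaperone of HSP70, fell from 1035 and 944 to 244 and 263 RPKM (-1.96 ± 0.10, adjusted p = 3.77e-06), and Dnaja4 from 138 and 138 to 38 and 36.8 (-1.86 ± 0.08, adjusted p = 1.89e-06). Hspe1, the lid of the mitochondrial HSP60 chamber, fell from 416 and 321 to 101 and 111 RPKM (-1.78 ± 0.13, adjusted p = 2.71e-05). Of the chaperones that unstressed cells also express, Hsp90ab1 (HSP90 beta) fell from 1479 and 1264 to 855 and 837 RPKM (-0.69 ± 0.11, adjusted p = 0.00163). Hspa8 (HSC70) was at 1276 and 1240.3 RPKM in young and 1124 and 1034 in old GSH-high (adjusted p = 0.134), and Hsf1 itself at 30.8 and 28.3 (young) and 32.8 and 29.6 (old GSH-high) (adjusted p = 0.56), neither past the test; all 3 were singled out after their values were seen, and Hspa8 passed as a fall after removal of the trend over length and GC (adjusted p = 0.0277). The falls of the list held with each library left out, with counts of 16 to 19.

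Promoters of the fallen heat shock genes were searched for GAANNTTC, a facing pair of the units of the heat shock element, with N any base. The letters stood in the 250 bases before the start of 8 of 15 of them (53.3%), in 1 of the 6 list members that were not called, and in 6.03% of the promoters of genes tested. They stood in 5.45% of the promoters of all fallen genes. The 200 bases before the start of the 3 highest of these genes are shown in the same way, with the element in capitals: Hspa1a at chr17:34972157-34972356 (-), Hspa1b at chr17:34959239-34959438 (-) and Hspb1 at chr5:135887719-135887918 (+).
Hspa1a: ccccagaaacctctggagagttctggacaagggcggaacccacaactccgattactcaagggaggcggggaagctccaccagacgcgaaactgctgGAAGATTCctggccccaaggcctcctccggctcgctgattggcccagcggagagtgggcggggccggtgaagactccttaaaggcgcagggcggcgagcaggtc
Hspa1b: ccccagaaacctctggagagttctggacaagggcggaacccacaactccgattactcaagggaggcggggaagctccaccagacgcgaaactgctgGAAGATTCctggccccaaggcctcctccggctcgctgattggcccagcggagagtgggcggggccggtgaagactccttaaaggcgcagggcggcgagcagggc
Hspb1: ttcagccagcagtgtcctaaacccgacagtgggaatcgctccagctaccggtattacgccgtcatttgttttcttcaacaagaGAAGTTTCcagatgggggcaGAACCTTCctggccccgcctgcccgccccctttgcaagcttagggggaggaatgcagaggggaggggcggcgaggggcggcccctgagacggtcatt
Hspa1a and Hspa1b hold 1 match each, 104 bases before the start, and Hspb1 holds 2. The windows of Hspa1a and Hspa1b are almost the same, as their coding genes are.

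Chaperones of the endoplasmic reticulum, which fold secreted and membrane proteins, also fell, by less. Of 28 tested, 13 fell and none rose (median -0.23). Hsp90b1 (GRP94) went from 404 and 403 to 258 and 290.4 RPKM (-0.56 ± 0.09, adjusted p = 0.00251), and Pdia4, a disulfide isomerase, from 120.0 and 115 to 69.1 and 80.3 (-0.65 ± 0.11, adjusted p = 0.00236). The stress transcription factors of the same list did not pass: Atf4 was at 336 and 298 RPKM in young and 373 and 369 in old GSH-high (adjusted p = 0.0983), and Ddit3 (CHOP) at 10.8 and 8.28 (young) and 9.43 and 8.59 (old GSH-high) (adjusted p = 0.726), both named after their values were seen. Atf4 passed as a rise with libraries scaled by size alone (adjusted p = 0.0366), without young replicate 1 (0.0286) and after removal of the trend over length and GC (0.027). When old GSH-high replicate 1 was left out 3 genes fell, and when replicate 2 was, 6 did. Without young replicates 1 and 2 there were 2 and 3 rises. Of 25 ATF4 targets and one-carbon genes 7 fell (28%, against 13.7% of all genes tested) and 2 rose (8%, against 15.1%). Of the enzymes of serine synthesis, Psat1 went from 20.3 and 20.6 to 11.1 and 12.2 RPKM (-0.77 ± 0.08, adjusted p = 3.02e-04) and Phgdh, which starts the pathway, from 29.4 and 28 to 17.5 and 17.1 (-0.70 ± 0.12, adjusted p = 0.00341). The falls numbered 4 when young replicate 1 or either old GSH-high library was left out, and the rises 5 without young replicate 1 and 1 when young replicate 2 or either old GSH-high library was.

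Immediate early genes were lower in old GSH-high, with exceptions. They are transcribed within minutes of a stimulus, and dissociation of muscle is known to induce them in satellite cells. Of 41 tested, 26 fell (63.4%, against 13.7% of all genes tested) and 7 rose (17.1%, near the 15.1% of all genes), with a median of -0.38. When the old fractions were compared, 14 passed as higher in old GSH-low, as 3.69% of all genes did. Fos, which pairs with Jun proteins to form AP-1, was at 1005 and 897 RPKM in young and 421 and 402 in old GSH-high (-1.20 ± 0.10, adjusted p = 4.88e-05), but at 891 and 889.5 in old GSH-low. Nr4a1, an orphan nuclear receptor, followed the same order with 130.4 and 131, 73.8 and 68.8 and 121 and 111 RPKM in the libraries of the 3 groups (old GSH-high minus young -0.87 ± 0.09, adjusted p = 1.63e-04). Egr2, a zinc finger factor, fell from 65.4 and 65.6 to 31.1 and 29 RPKM (-1.10 ± 0.08, adjusted p = 3.96e-05) and stayed low in old GSH-low, at 36.9 and 34.2. The phosphatase gene Dusp1 fell from 642 and 579 to 341 and 339 RPKM (-0.84 ± 0.09, adjusted p = 3.02e-04), and Btg2 from 231 and 201 to 121 and 109 (-0.90 ± 0.10, adjusted p = 3.09e-04).

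Some members rose. Nr4a2, a paralogue of Nr4a1, went from 4.97 and 5.85 to 14.2 and 13.8 RPKM (1.23 ± 0.10, adjusted p = 5.03e-05). Fosl2, the Fos family member that persists after the early wave, went from 12.6 and 14.5 to 23.5 and 22.3 RPKM (0.72 ± 0.13, adjusted p = 0.00335), and Socs3, a feedback inhibitor of gp130 receptors, from 51.1 and 47 to 83.3 and 72.1 (0.65 ± 0.11, adjusted p = 0.00246). In old GSH-low Nr4a2 was at 23 and 20.9, Fosl2 at 30.9 and 23.8 and Socs3 at 165 and 143 RPKM. Without old GSH-high replicate 2 the list had 15 falls and 4 rises, and without replicate 1 it had 3 rises. The promoters of the fallen members held the cyclic AMP element TGACGTCA in 4 of 23 (17.4%) against 3.21% of promoters of genes tested, and the E-box CACGTG in 8 (34.8%) against 10.1%. The antioxidant element TGACNNNGC had the highest share of the motifs searched, in 9 (39.1%) against 14.1%, and the ISRE core GAAANNGAA was in 4 (17.4%) against 7.49%. Of 7 motifs searched, the AP-1 site TGANTCA was found in 1 of these 23 promoters (4.35%, against 5.46% of genes tested). Of 21 clock genes 5 rose (23.8%, against 15.1% of all genes tested) and 4 fell (19%, against 13.7%). The repressor Nr1d1 (REV-ERB alpha) fell from 257 and 267 to 158 and 154 RPKM (-0.74 ± 0.08, adjusted p = 2.74e-04), while Per2 rose from 8.74 and 11.7 to 17.7 and 16.2 (0.69 ± 0.13, adjusted p = 0.00419) and Cry1 from 32.9 and 34.4 to 50.5 and 46.5 (0.51 ± 0.08, adjusted p = 0.00218). The number of falls was 2 when either old GSH-high library was left out.

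Genes that define satellite cells fell in a larger share than all genes tested, though most were not called. Of 29 tested, 1 rose (3.45%, against 15.1% of all genes tested) and 8 fell (27.6%, against 13.7%). The other 20 did not pass (median -0.03), and of all genes tested only 28.8% were called in either direction. Pax7 had a log2 fold change of 0.09 ± 0.09 (adjusted p = 0.488), and Myf5, the first of the myogenic factors, was at 79.5 and 75.8 RPKM in young and 80.8 and 87.2 in old GSH-high (0.11 ± 0.08, adjusted p = 0.345). The sort marker Vcam1 was at 169.9 and 177 (young) and 207 and 198 (old GSH-high) RPKM (0.22 ± 0.09, adjusted p = 0.0823), and passed when libraries were scaled by size alone (adjusted p = 0.0328). Itga7, the laminin receptor of these cells, was at 68.6 and 80 (young) and 59.2 and 57.4 (old GSH-high) RPKM (-0.34 ± 0.13, adjusted p = 0.0829), and passed as a fall in the 4 libraries alone (adjusted p = 0.0485), without old GSH-low replicate 1 (0.0488) or 2 (0.0489) and after removal of the trend over length and GC (0.0373). Cdh15 was not called (adjusted p = 0.15) and passed as a rise with that trend removed (0.0393).

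The members that fell include receptors and adhesion genes of the niche. Calcr, the calcitonin receptor that holds satellite cells in quiescence, fell from 40.2 and 46.6 to 18.1 and 20.3 RPKM (-1.13 ± 0.11, adjusted p = 1.45e-04) and was at 22.9 and 19.8 in old GSH-low. Dag1 (dystroglycan, which anchors the cell to laminin) fell from 318 and 374 to 182 and 200.1 RPKM (-0.85 ± 0.11, adjusted p = 5.43e-04). The 1 rise was Cd34, a sialomucin of satellite cells and of other progenitors, from 14.6 and 14.8 to 22.2 and 23 RPKM (0.59 ± 0.08, adjusted p = 7.65e-04). The count of falls was 4 without old GSH-high replicate 1 and 5 without replicate 2, and that of rises was 4 without young replicate 2.

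Among 33 genes of quiescence, 6 rose (18.2%, against 15.1% of all genes tested) and 11 fell (33.3%, against 13.7%). Spry1, the inhibitor of FGF signalling that keeps satellite cells at rest, fell from 204 and 206 to 142 and 129 RPKM (-0.60 ± 0.09, adjusted p = 0.00132), and Spry2 from 64.9 and 53.2 to 32.9 and 32.8 (-0.82 ± 0.12, adjusted p = 0.0012). Gas1, a membrane protein of arrested cells, fell from 142 and 145 to 65.1 and 60.8 RPKM (-1.18 ± 0.08, adjusted p = 2.11e-05). Angpt1, the angiopoietin made by satellite cells, rose from 0.389 and 0.376 to 1.55 and 1.62 RPKM (0.90 ± 0.09, adjusted p = 2.24e-04), beside the endothelial genes of the same list described with the markers. The counts were 7 falls without old GSH-high replicate 1 and 10 rises without young replicate 2.

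Notch signalling, which also maintains quiescence, showed 3 rises and 3 falls among 20 genes (15% each way), which is near the background of 15.1% and 13.7%. The ligand gene Dll1 fell from 4.99 and 5.49 to 2.98 and 2.28 RPKM (-0.79 ± 0.12, adjusted p = 0.00177), while Jag1 rose from 10.2 and 13.2 to 23.4 and 19.8 (0.84 ± 0.13, adjusted p = 0.002). Of the effectors, Hey1 fell from 25.6 and 24.9 to 15.8 and 16.7 RPKM (-0.61 ± 0.08, adjusted p = 8.37e-04) and Heyl was at 30.2 and 31.7 (young) and 33.1 and 30.7 (old GSH-high) (0.04 ± 0.09, adjusted p = 0.748). Hes1 was at 16.3 and 13.4 (young) and 12.4 and 11.4 (old GSH-high) RPKM (adjusted p = 0.0735) and passed as a fall without young replicate 2 (adjusted p = 0.012) and after removal of the trend over length and GC (0.019).

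Genes of commitment and differentiation fell more often than they rose, 10 against 2 of 21. Myod1, the determination factor, was at 688 and 674 RPKM in young and 877 and 759 in old GSH-high (0.26 ± 0.10, adjusted p = 0.0875); it passed as a rise with libraries scaled by size alone (adjusted p = 0.0332), with limma-voom (0.0453) and after removal of the trend over length and GC (0.0313). Myog (myogenin, of later differentiation) fell from 12.6 and 9.88 to 5.18 and 7.09 RPKM (-0.78 ± 0.18, adjusted p = 0.0122), a call that ended without young replicate 1 (adjusted p = 0.068) or old GSH-high replicate 1 (0.0901). Chrna1, a subunit of the acetylcholine receptor of muscle, fell from 36.1 and 33.6 to 11.6 and 13.7 RPKM (-1.40 ± 0.12, adjusted p = 9.23e-05) and Tnnt1, slow troponin T, from 13.2 and 10.1 to 4.98 and 5.99 (-0.96 ± 0.16, adjusted p = 0.00232). The falls numbered 3 when old GSH-high replicate 1 was left out. Myofibre markers, which the lists share in part, summed to 149 and 159 RPKM in young, 87.2 and 94.3 in old GSH-high and 124 and 127 in old GSH-low, with Ckm at or under 0.853 and Myh4 at or under 0.249 in the 4 libraries compared. Of 12 tested, 2 rose (Tpm2, and Tnnt3 with adjusted p = 0.0173, lost with limma-voom at 0.0674), 3 fell and 7 did not pass, with 1 rise when either old GSH-high library was left out. Actn3 fell from 87 and 98.5 to 40.1 and 41.8 RPKM (-1.16 ± 0.09, adjusted p = 4.02e-05) and Atp2a1, the calcium pump of fast fibres, from 24.2 and 24 to 8.56 and 9.61 (-1.32 ± 0.10, adjusted p = 3.13e-05). The part of fibre RNA in the falls was not tested.

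**Figure D3:**
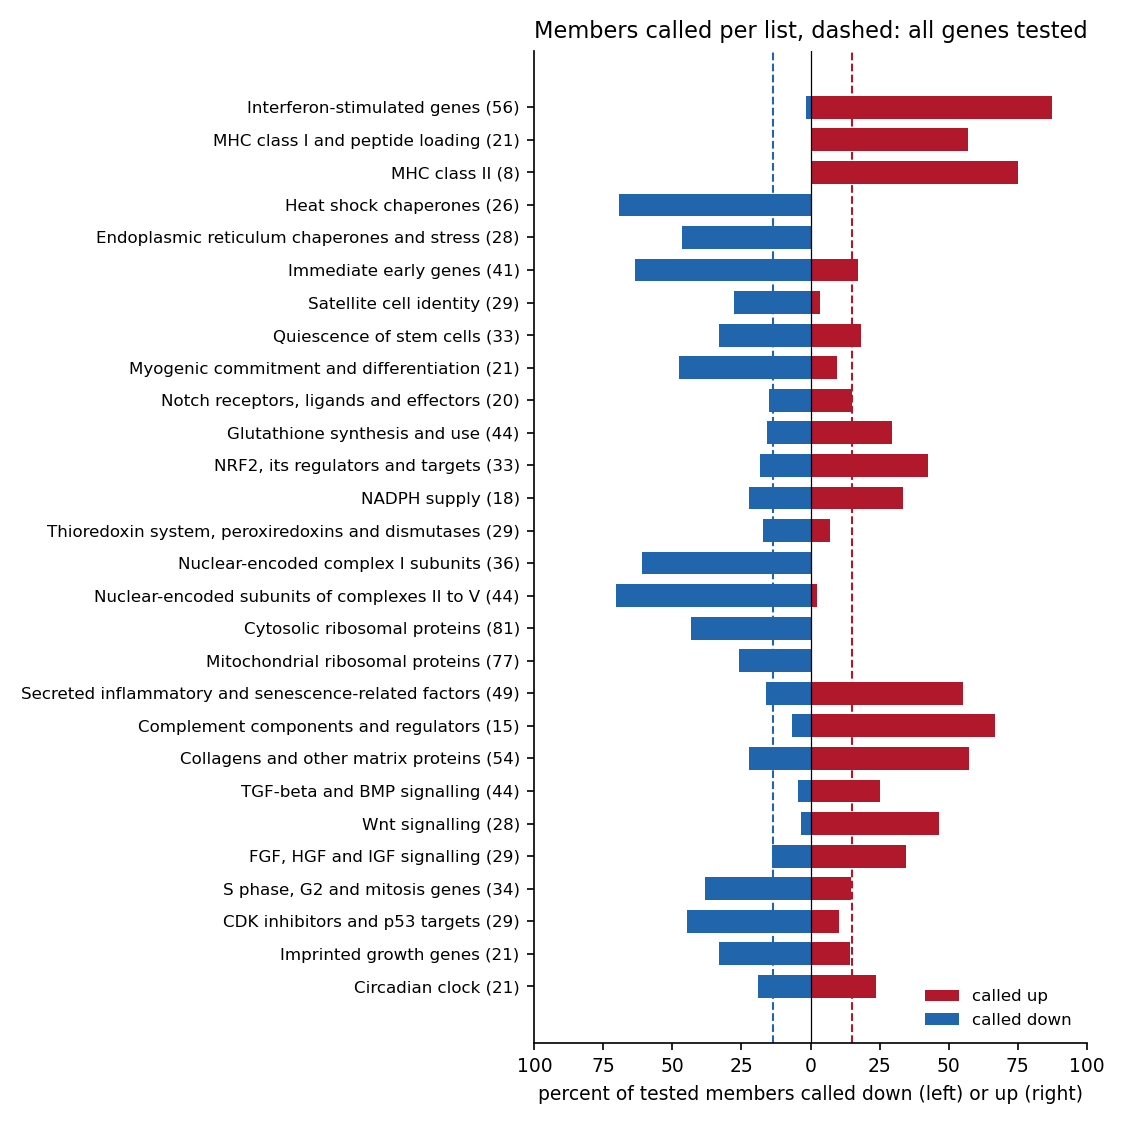
Percent of the tested members of 28 gene lists called down (blue, left) or up (red, right) in old GSH-high against young, with the number tested in brackets and dashed lines at 13.7% down and 15.1% up, the shares over all genes tested. Interferon-stimulated genes stand out upward, and heat shock chaperones and the respiratory complexes downward.

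Nuclear genes of the respiratory chain were lower in old GSH-high. Of 36 complex I subunits, 22 fell and none rose (median -0.49), and of 44 subunits of complexes II to V, 31 fell and 1 rose (median -0.51). Ndufa13 of complex I was at 62.8 and 48 RPKM in young and 30.3 and 31.8 in old GSH-high (-0.80 ± 0.15, adjusted p = 0.00433), and Ndufs6 at 39.4 and 31.8 (young) and 19.9 and 20.4 (old GSH-high) (-0.78 ± 0.13, adjusted p = 0.00269). Cox6c of complex IV was at 30 and 26.2 (young) and 19.3 and 18.6 (old GSH-high) RPKM (-0.54 ± 0.09, adjusted p = 0.00306) and Atp5e of the ATP synthase at 33.5 and 24.9 (young) and 15.8 and 17.1 (old GSH-high) (-0.78 ± 0.16, adjusted p = 0.00657). In these 4 genes young replicate 1 lay above young replicate 2, and both above old GSH-high. The rise was that of Cox8b, a heart and muscle isoform, from 1.69 and 1.09 to 2.21 and 2.51 RPKM (adjusted p = 0.0395), which ended without young replicate 2 (0.149), old GSH-high replicate 1 (0.0951) or 2 (0.166), with limma-voom (0.13) and with the replicate block (0.059).

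The summed RPKM of complex I was 1283 and 1009 in young, 780.2 and 798 in old GSH-high and 718 and 844 in old GSH-low, so that the gap between the young libraries was wider than the gap from the lower young library to old GSH-high. Leaving out old GSH-high replicate 1 gave 9 falls for complex I and 2 for complexes II to V, and for the latter 15 without replicate 2 and 11 without young replicate 1. With the length and GC trend removed the medians were -0.50 and -0.44. The genes encoded by the mitochondrial genome are not among the genes of the table.

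Cytosolic ribosomal proteins fell too, in a smaller share. Of 81 tested, 35 fell and none rose, with a median of -0.37. Rpl37a, of the large subunit, was at 206 and 163 RPKM in young and 119 and 114 in old GSH-high (-0.65 ± 0.12, adjusted p = 0.00439), and Rps26, of the small subunit, at 109 and 95.7 (young) and 70.1 and 72.9 (old GSH-high) (-0.51 ± 0.09, adjusted p = 0.00378). The list summed to 15959 and 12661 RPKM in young and 10948 and 11211 in old GSH-high, and the lower young library stood nearer to the old libraries than to the other young one. The count of falls was 6 or 73 when young replicate 1 or 2 was left out, and 2 or 4 when old GSH-high replicate 1 or 2 was. It was 23 with libraries scaled by size alone and 64 after removal of the trend over length and GC. Of 77 mitochondrial ribosomal proteins 20 fell (median -0.23), led by Mrps21, at 19.7 and 15.5 (young) and 8.51 and 8.7 (old GSH-high) RPKM (-0.94 ± 0.12, adjusted p = 6.99e-04), with counts from 4 without old GSH-high replicate 1 to 42 without young replicate 2. Leaving out young replicate 1 gave 8 falls, old GSH-high replicate 2 10 and either old GSH-low library 13.

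**Figure D4:**
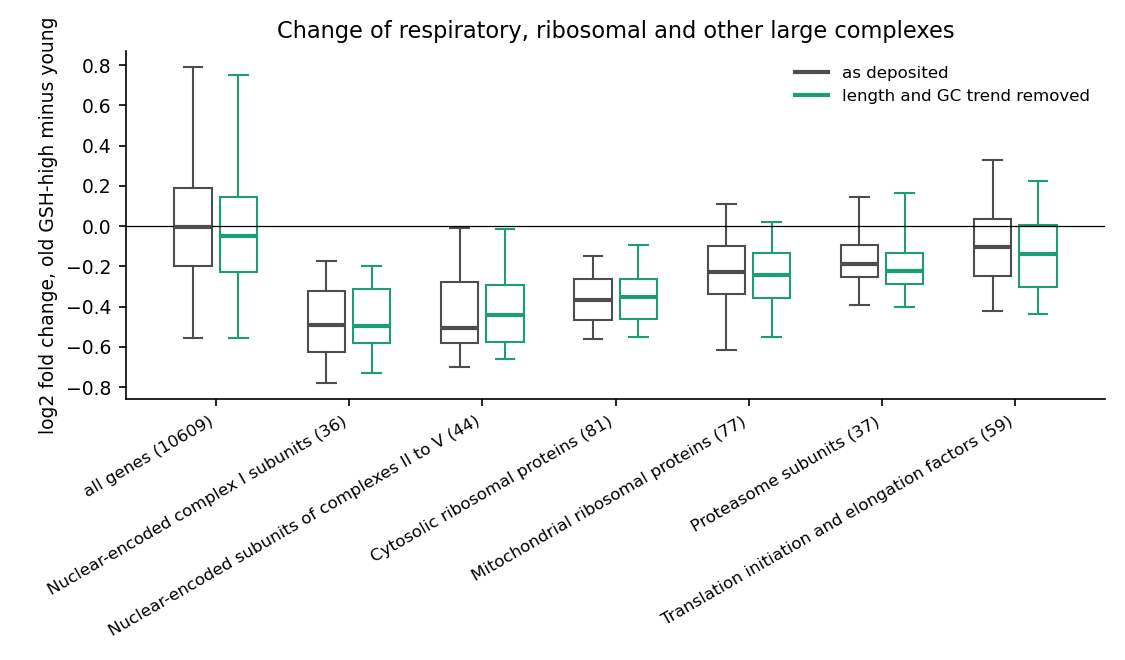
Log2 fold change from young to old GSH-high (y axis) of all genes and of 6 lists, with the number tested in brackets; boxes span the quartiles with the median as a line, and whiskers the 5th to 95th percentile. Grey is the fit on the deposited scaling and green the fit with a trend over gene length and GC content removed; the medians of complex I, -0.49 and -0.50, lie well under that of all genes in both.

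Glutathione genes rose more often than they fell. Of 44 genes of its synthesis and use, 13 rose (29.5%, against 15.1% of all genes tested) and 7 fell (15.9%, near the 13.7% of all genes), with a median of 0.14. Old GSH-low against young was much the same, with 12 rises and 10 falls (median 0.11). Between the old fractions 1 member passed, as higher in old GSH-low. Gclc, the catalytic subunit of the rate-limiting glutamate-cysteine ligase, was at 38.9 and 38.9 RPKM in young and 65.2 and 52.2 in old GSH-high (0.57 ± 0.11, adjusted p = 0.00609), a call lost when old GSH-high replicate 1 was left out (adjusted p = 0.0615). Gclm, the modifier subunit, rose from 52.9 and 50.3 to 73.9 and 71.3 RPKM (0.49 ± 0.08, adjusted p = 0.00313). Cbs, the first enzyme that turns homocysteine toward cysteine, rose from 1.24 and 1.54 to 3.66 and 3.96 RPKM (1.01 ± 0.11, adjusted p = 2.61e-04). Slc7a11, the cystine importer, was low throughout, at 1.36 and 1.18 RPKM in young and 0.726 and 0.68 in old GSH-high (-0.41 ± 0.10, adjusted p = 0.0154), and its fall ended without young replicate 1 (adjusted p = 0.0821) or old GSH-high replicate 1 (0.0696) or 2 (0.0809).

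Among the enzymes that use glutathione, Mgst1, a transferase of membranes, rose from 8.8 and 7.54 to 23.1 and 18 RPKM (1.22 ± 0.15, adjusted p = 5.30e-04) and Gpx7, a peroxidase of the endoplasmic reticulum, fell from 15.8 and 11.3 to 5.18 and 6.57 (-1.07 ± 0.18, adjusted p = 0.003). Gpx4, which reduces lipid peroxides, was at 133 and 104 (young) and 110.1 and 114 (old GSH-high) RPKM (-0.07 ± 0.12, adjusted p = 0.707). Gsr, the reductase of oxidised glutathione, went from 15.8 and 15.9 to 21.9 and 19.9 RPKM (0.38 ± 0.11, adjusted p = 0.0298), a call that ended with either young library left out (adjusted p = 0.0747 and 0.0518) or either old GSH-high library (0.2 and 0.0682). The list had 7 rises and 1 fall without old GSH-high replicate 1, 4 falls without replicate 2 and 1 fall without young replicate 1. Of 29 genes of the thioredoxin system, peroxiredoxins and dismutases, 2 rose (6.9%, against 15.1% of all genes tested) and 5 fell (17.2%, against 13.7%). Among the falls Prdx2 went from 29.4 and 22.3 to 14.1 and 16.3 RPKM (-0.72 ± 0.14, adjusted p = 0.00482). Both counts changed with single libraries left out.

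NRF2, the transcription factor that responds to oxidants, and its targets showed 14 rises and 6 falls among 33 (median 0.26). Its own gene Nfe2l2 went from 64.6 and 62.4 to 80.5 and 80.8 RPKM (0.34 ± 0.08, adjusted p = 0.0116), and that call was lost when old GSH-high replicate 1 was left out (adjusted p = 0.0964) or 2 (0.0888). Hmox1, heme oxygenase, rose from 659.9 and 597 to 1493 and 1337 RPKM (1.17 ± 0.10, adjusted p = 9.46e-05), the highest level of any gene in the list in old GSH-high. Aldh3a1, an aldehyde dehydrogenase, rose from 4.2 and 4.39 to 20.3 and 19.6 RPKM (1.99 ± 0.08, adjusted p = 1.65e-06), and Txnrd1, thioredoxin reductase, from 190.1 and 205 to 326 and 299 (0.66 ± 0.11, adjusted p = 0.00241). Bach1, the repressor that competes with NRF2, fell from 39.9 and 33 to 23 and 24.9 RPKM (-0.58 ± 0.10, adjusted p = 0.00367), and Osgin1 from 222 and 202 to 140.0 and 125 (-0.67 ± 0.09, adjusted p = 0.00104). The letters TGACNNNGC of the antioxidant element stood in the promoters of 4 of 10 risen list genes (40%) against 14.1% of genes tested, a share close to that of the fallen immediate early genes (39.1%).

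NADPH is the reductant that glutathione reductase draws on. Of 18 genes of its supply, 6 rose (33.3%, against 15.1% of all genes tested) and 4 fell (22.2%, against 13.7%). In the oxidative arm of the pentose phosphate pathway G6pdx rose from 8.36 and 8.69 to 12.1 and 12.2 RPKM (0.47 ± 0.08, adjusted p = 0.00333) and Pgd from 9.27 and 8.64 to 14.3 and 13.4 (0.58 ± 0.09, adjusted p = 0.00185), while Pgls, the lactonase between them, was at 8.77 and 7.08 (young) and 6.04 and 6.25 (old GSH-high) RPKM (adjusted p = 0.123). Old GSH-low lay near young, with G6pdx at 8.06 and 7.8 and Pgd at 10.7 and 9.71 RPKM. Me1 (cytosolic malic enzyme) rose from 2.84 and 2.93 to 6.04 and 5.88 RPKM (0.84 ± 0.09, adjusted p = 2.13e-04) and Tkt (transketolase) from 2.05 and 2.15 to 4.49 and 4.27 (0.80 ± 0.09, adjusted p = 3.04e-04). In the other direction Idh2, the mitochondrial NADP-dependent isocitrate dehydrogenase, fell from 62.8 and 59.2 to 29.6 and 32.1 RPKM (-0.96 ± 0.09, adjusted p = 1.17e-04) and Taldo1 (transaldolase) from 47.6 and 41.1 to 28 and 30 (-0.59 ± 0.10, adjusted p = 0.00322). Leaving out old GSH-high replicate 2 gave 2 falls.

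Transporters of lactate rose in the glycolysis list. In that list 5 of 22 rose (22.7%, against 15.1% of all genes tested) and 3 fell (13.6%, near the 13.7% of all genes). Slc16a3 (MCT4, a lactate exporter) went from 5.62 and 5.4 to 31.7 and 29 RPKM (2.27 ± 0.09, adjusted p = 1.47e-06), Slc16a1 (MCT1) from 58.6 and 65.3 to 147 and 142 (1.21 ± 0.10, adjusted p = 6.77e-05) and Ldhb from 7.38 and 5.94 to 13.6 and 13.2 (0.91 ± 0.10, adjusted p = 3.39e-04). Without old GSH-high replicate 1 the list had 3 rises and 1 fall, and without replicate 2 it had 0 falls. Of 25 genes of fatty acid oxidation 6 fell (3 without old GSH-high replicate 1) and 1 rose (2 without young replicate 2). Among them Etfa, which passes electrons to the chain, fell from 159 and 142 to 98.1 and 105 RPKM (-0.57 ± 0.09, adjusted p = 0.00195). The 1 rise in that list was Acsl4, which activates polyunsaturated fatty acids, from 14.9 and 19.4 to 44.9 and 46.4 RPKM (1.37 ± 0.14, adjusted p = 1.77e-04).

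Of 49 secreted factors of inflammation and senescence, 27 rose and 8 fell (median 0.50). Ccl11 (eotaxin) was at 18.2 and 17.5 RPKM in young and 268 and 255 in old GSH-high, a 14.6-fold rise (3.80 ± 0.08, adjusted p = 1.14e-07). Il6 went from 15.6 and 18.5 to 80.5 and 77.6 RPKM (2.15 ± 0.11, adjusted p = 3.77e-06) and stood at 197 and 172 in old GSH-low. Il33, an alarmin of stromal cells, went from 2.54 and 2.68 to 40.5 and 36.1 RPKM (3.44 ± 0.12, adjusted p = 9.72e-07), and Mmp3 (stromelysin-1) from 2.21 and 1.47 to 60.7 and 59.3 (4.44 ± 0.12, adjusted p = 2.68e-07). Hgf, the ligand of the Met receptor that activates satellite cells, rose from 0.174 and 0.133 to 1.44 and 1.69 RPKM (1.15 ± 0.10, adjusted p = 9.02e-05). These rises stood beside a median of 1.06 for the markers of fibro-adipogenic progenitors and 2.53 for those of tenocytes, connective tissue cells that make several of these factors; the part of such cells was not tested.

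The falls of that list include growth factors and chemokines. Ccl5 (RANTES) fell from 11.3 and 9.22 to 3.01 and 2.37 RPKM (-1.61 ± 0.13, adjusted p = 4.68e-05). The EGF receptor ligands Areg and Ereg fell from 7.81 and 6.63 to 1.87 and 2.73 RPKM (-1.33 ± 0.17, adjusted p = 5.72e-04) and from 4.55 and 5.67 to 1.81 and 2.02 (-1.06 ± 0.12, adjusted p = 3.21e-04). Csf2 (GM-CSF) fell from 2.76 and 3.08 to 0.596 and 0.646 RPKM (-1.27 ± 0.10, adjusted p = 4.52e-05). Cxcl10, a chemokine induced by interferon gamma, was at 28.8 and 23.9 RPKM in young, 13.2 and 15.2 in old GSH-high and 32.1 and 36.8 in old GSH-low, and so moved against most of the interferon list (-0.84 ± 0.12, adjusted p = 0.00107). Of the NF-kappa B list 4 of 26 rose (15.4%, near the 15.1% of all genes tested) and 1 fell (3.85%, against 13.7%). Both counts changed with single libraries left out.

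Complement genes rose in 10 of 15 and fell in 1 (median 1.29). Cfd (adipsin, a protease of the alternative pathway that is abundant in fat cells; chromosome 10, 79890853 to 79892655) had the largest fitted rise of all genes tested. It had 0 and 4 reads in the young libraries and 3805 and 2389 in old GSH-high, which is 59.7 and 41.9 RPKM in old GSH-high against 1.39 and 0.834 in old GSH-low; the log2 fold change from young was 5.59 ± 0.17 (adjusted p = 5.23e-07). C7, of the membrane attack complex, rose from 0.246 and 0.394 to 9.67 and 8.71 RPKM (2.95 ± 0.14, adjusted p = 3.44e-06). The fall was that of Clu (clusterin, a secreted chaperone), from 116 and 93.3 to 37.1 and 35.5 RPKM (-1.49 ± 0.12, adjusted p = 4.32e-05). Fat cell markers rose in 7 of 9, a count that includes Cfd itself and shares Fabp4 and Cd36 with the endothelial markers. Their sum, Cfd included, was 37.3 and 39 RPKM in young, 134 and 116 in old GSH-high and 38 and 32.6 in old GSH-low. Adipoq had 0 and 7 reads in young and 182 and 155 in old GSH-high. Cfd was under 1 RPKM in both young libraries and entered the test only through the old libraries, so that the filter favoured its rise. The part of such cells was not tested.

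Matrix genes changed in both directions, 31 up and 12 down among 54 (median 0.67). The rises were led by proteoglycans and glycoproteins of tendon and cartilage. Fmod (fibromodulin, which binds collagen fibrils; chromosome 1, 134037254 to 134048277) went from 10.2 and 13.4 RPKM in young to 356 and 278 in old GSH-high, a 26.8-fold rise (4.63 ± 0.15, adjusted p = 6.85e-07), and stood at 1364 and 1183 in old GSH-low. Thbs4, a thrombospondin of tendon, went from 11.9 and 8.79 to 302 and 220.2 RPKM (4.52 ± 0.18, adjusted p = 1.47e-06), and Dcn (decorin) from 13.9 and 17.8 to 185 and 163 (3.38 ± 0.13, adjusted p = 1.47e-06). Mgp, the inhibitor of calcification, rose from 9.12 and 8.29 to 57.4 and 49.1 RPKM (2.48 ± 0.10, adjusted p = 1.47e-06).

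These rises moved with the tenocyte markers, of which 13 of 15 rose and which share Fmod and Thbs4 with the matrix list. Tnmd, the marker of mature tendon cells, was at 2.47 and 3.57 RPKM in young, 29.6 and 27.2 in old GSH-high and 136 and 124 in old GSH-low, and Mkx, a transcription factor of tendon, at 0.635 and 0.495, 6.25 and 5.05 and 9.66 and 8.4. Scx (scleraxis), the early tendon factor, was at 2.74 and 2.15 RPKM in young and 2.69 and 2.62 in old GSH-high (0.09 ± 0.11, adjusted p = 0.563). The summed markers were 159 and 134 RPKM in young, 939 and 743 in old GSH-high and 3350.1 and 2912 in old GSH-low, and their part in the matrix rises was not tested.

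The falls held Col5a1 and Col5a3 of collagen V, which satellite cells are known to make for their niche, while Col5a2 did not pass. They also held chains of collagens III, IV and VI. Other chains of collagens IV and VI rose, namely Col4a5, Col4a6 and Col6a3 (1.124). Col1a1, Col1a2, Col8a1, Col8a2 and Col12a1 rose as well. Sparc (osteonectin) fell from 742 and 617 to 195 and 236 RPKM (-1.65 ± 0.15, adjusted p = 9.23e-05). Col3a1 fell from 268 and 372 to 112 and 120.0 RPKM (-1.44 ± 0.15, adjusted p = 1.94e-04), Col5a1 from 74.3 and 70.7 to 27.8 and 29.9 (-1.30 ± 0.09, adjusted p = 2.93e-05) and Col6a1 from 155 and 179 to 82 and 89.3 (-0.95 ± 0.10, adjusted p = 2.09e-04). Among adhesion genes Lamc1, a laminin chain of the basement membrane, fell from 87.3 and 115 to 55.3 and 54.9 RPKM (-0.85 ± 0.12, adjusted p = 0.00116), while the integrin Itgb5 rose from 6.85 and 7.74 to 21.9 and 21.2 (1.44 ± 0.10, adjusted p = 3.13e-05). The old GSH-low libraries lay near old GSH-high, with Sparc at 225 and 284 RPKM and Col3a1 at 89.3 and 101.

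Secreted antagonists were among the signalling genes that rose. In the TGF-beta and BMP list 11 of 44 rose (25%, against 15.1% of all genes tested) and 2 fell (4.55%, against 13.7%). Fst (follistatin, which traps activins and myostatin) rose from 0.437 and 0.493 to 4.98 and 4.19 RPKM (1.93 ± 0.13, adjusted p = 1.70e-05), and Inhbb, an activin subunit, from 5.81 and 5.39 to 14.7 and 14.2 (1.23 ± 0.09, adjusted p = 2.66e-05). In the Wnt list 13 of 28 rose (46.4%, against 15.1%) and 1 fell (3.57%, against 13.7%). Sfrp4, a secreted antagonist, rose from 0.866 and 1.58 to 11.4 and 11.3 RPKM (2.49 ± 0.14, adjusted p = 6.54e-06). Sfrp1 rose from 0.606 and 0.522 to 2.15 and 1.8 (0.93 ± 0.10, adjusted p = 3.07e-04). Wls, which escorts Wnt proteins to the surface, rose from 5.11 and 5.17 to 9.14 and 10.4 (0.81 ± 0.09, adjusted p = 3.22e-04). Fst and Sfrp1, under 1 RPKM in both young libraries, entered the test only through the old libraries, so that the filter favoured their rises. Without old GSH-high replicate 1 the rises numbered 5 and 7 in the 2 lists, and in the TGF-beta list 7 without replicate 2. The falls of the TGF-beta list numbered 4 without young replicate 1 and 1 when either old GSH-high library was left out, and that of the Wnt list 2 without young replicate 2.

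In the FGF, HGF and IGF list 10 of 29 rose (34.5%, against 15.1% of all genes tested). In it 4 fell (13.8%, near the 13.7% of all genes), a count that was higher without young replicate 1. Igf1 fell from 5.2 and 5.33 to 2.01 and 2.12 RPKM (-1.03 ± 0.10, adjusted p = 1.51e-04), while Igf2 rose from 0.842 and 0.735 to 2.27 and 2.34 (0.89 ± 0.10, adjusted p = 3.98e-04). The binding proteins Igfbp5 and Igfbp6 rose from 35.2 and 42.5 to 81 and 93.7 RPKM (1.15 ± 0.11, adjusted p = 1.73e-04) and from 10.3 and 7.9 to 51.7 and 45.5 (2.30 ± 0.12, adjusted p = 4.55e-06). Imprinted growth genes fell in 7 of 21 (33.3%, against 13.7%) and rose in 3 (14.3%, near the 15.1% of all genes). Dlk1, a membrane ligand of muscle progenitors, fell from 2.91 and 2.59 to 0.715 and 0.608 RPKM (-1.17 ± 0.10, adjusted p = 8.62e-05), Mest from 49.4 and 44.4 to 15.5 and 22.5 (-1.28 ± 0.17, adjusted p = 7.17e-04) and Plagl1, a regulator of the imprinted network, from 15.7 and 17.6 to 8.17 and 9.48 (-0.84 ± 0.10, adjusted p = 4.11e-04).

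Cell cycle genes fell in 13 of 34 (38.2%, against 13.7% of all genes tested), with 5 rises (14.7%, near the 15.1% of all genes). The D-type cyclins went in opposite directions: Ccnd1 fell from 32 and 21.8 to 8.9 and 11.4 RPKM (-1.30 ± 0.17, adjusted p = 7.43e-04) and Ccnd2 rose from 0.352 and 0.566 to 2.01 and 2.16 (1.08 ± 0.11, adjusted p = 1.53e-04). Mki67, a marker of dividing cells, fell from 1.69 and 1.81 to 0.398 and 0.882 RPKM (-0.76 ± 0.14, adjusted p = 0.00464), while Rrm2, which supplies deoxynucleotides, rose from 14 and 14.2 to 28.3 and 32.1 (1.04 ± 0.09, adjusted p = 6.81e-05). Among CDK inhibitors and p53 targets 13 of 29 fell (44.8%, against 13.7%) and 3 rose (10.3%, against 15.1%). Cdkn1a (p21) fell from 123 and 97.7 to 72.4 and 71.2 RPKM (-0.60 ± 0.12, adjusted p = 0.00529) and Bbc3 (PUMA, which promotes apoptosis) from 8.71 and 8.17 to 4.09 and 3.98 (-0.91 ± 0.09, adjusted p = 1.79e-04), while Perp, a desmosomal p53 target, rose from 0.792 and 0.759 to 5.05 and 5.89 (1.86 ± 0.11, adjusted p = 1.10e-05). Cdkn2a, which encodes p16, is not among the genes of the table. Leaving out old GSH-high replicate 1 gave 4 falls of cell cycle genes and 6 of p53 targets, and 7 of cell cycle genes without young replicate 2; the rises numbered 3 and 1 when either old GSH-high library was left out.

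Some of the largest changes belong to none of the groups above. Cyp26a1, which breaks down retinoic acid, rose from 2.7 and 2.07 to 75.8 and 70.5 RPKM (4.46 ± 0.11, adjusted p = 1.14e-07) and was at 38.6 and 36.3 in old GSH-low. Angptl7, an angiopoietin-like matrix protein, rose from 2.43 and 2.82 to 107 and 95.6 RPKM (4.82 ± 0.12, adjusted p = 1.14e-07), and Apod, a lipocalin, from 7.28 and 9.35 to 116 and 93.4 (3.51 ± 0.15, adjusted p = 2.17e-06). Sbpl had 0 reads in each young library and 120.0 and 6.06 RPKM in old GSH-high; its fitted rise of 4.79 ± 0.99 (adjusted p = 0.0078) depends on the added 1 and rested on replicate 1; it was 2.74 without it (adjusted p = 3.42e-05) and missed the test with limma-voom (adjusted p = 0.0638). Among the falls, Ret, the receptor of glial cell line-derived factors, went from 12.4 and 14.7 to 3 and 3.07 RPKM (-1.85 ± 0.10, adjusted p = 5.84e-06), Col26a1 from 11.8 and 12.6 to 2.03 and 2.63 (-1.99 ± 0.11, adjusted p = 5.75e-06), and Tac4, a tachykinin precursor, from 13.1 and 10.2 to 1.65 and 2.79 (-1.99 ± 0.18, adjusted p = 1.10e-04). Dgkg, a diacylglycerol kinase, fell from 5.64 and 6.48 to 0.864 and 0.73 RPKM (-1.97 ± 0.11, adjusted p = 4.99e-06), and Popdc2, a membrane protein of striated muscle that binds cyclic AMP, from 22.8 and 21.4 to 6.37 and 6.59 (-1.63 ± 0.09, adjusted p = 4.55e-06). The old GSH-low libraries stayed at the old GSH-high level for these falls, for example 2.52 and 2.37 RPKM for Ret and 0.762 and 0.88 for Dgkg.

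Markers of several other cell types were higher in old GSH-high than in young. Of 29 endothelial markers 27 rose and 1 fell (median 0.86; 0 falls without young replicate 1 or either old GSH-high library), and their sum was 110.4 and 136 RPKM in young and 274 and 284 in old GSH-high, but 89.7 and 72.6 in old GSH-low. Cdh5 (VE-cadherin) was at 1.06 and 1.26 RPKM in young and 3.37 and 3.36 in old GSH-high (1.02 ± 0.14, adjusted p = 0.00111), Kdr (VEGF receptor) at 0.408 and 0.905 (young) and 2.13 and 1.91 (old GSH-high), and Fabp4, of capillaries and fat cells, at 8.69 and 8.8 (young) and 20.8 and 21.3 (old GSH-high). Markers under 1 RPKM in both young libraries, as Kdr was, entered the test only through the old libraries, so that the filter favoured their rises. Of 23 markers of fibro-adipogenic progenitors 17 rose and 2 fell, with sums of 960.0 and 972 RPKM in young and 1229 and 1190.0 in old GSH-high; their defining Pdgfra went from 0.135 and 0.328 to 1.33 and 1.17, and Dpt was at 139.6 and 98.3 (young) and 70.1 and 125 (old GSH-high) without a call (adjusted p = 0.369), though it passed as a fall without old GSH-high replicate 2 (adjusted p = 0.0412).

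Of 13 markers of pericytes and smooth muscle 9 rose and 3 fell, while their sum went from 975 and 965 to 720.2 and 741 RPKM, since the abundant Acta2 and Des (desmin) fell. The fall of Des, from 767 and 745 to 551 and 549 RPKM, was not called when old GSH-high replicate 1 was left out (adjusted p = 0.0583) or 2 (0.0523). Rgs5, of pericytes, rose from 3.7 and 3.97 to 7.62 and 8.7 RPKM and Acta2, smooth muscle actin, fell from 141 and 125 to 56.7 and 77.6 (-0.99 ± 0.14, adjusted p = 0.00122). Schwann cell markers rose in 6 of 11, and Sox10, a transcription factor of these cells, was at 0.858 and 0.324 (young) and 1.52 and 1.11 (old GSH-high) (adjusted p = 0.0645). Sox10 passed as a rise in the 4 libraries alone (adjusted p = 0.0458), when young replicate 1 (0.0281) or old GSH-low replicate 1 (0.0457) or 2 (0.0458) was left out, with limma-voom (0.0307), with the replicate block (0.00892) and after removal of the trend over length and GC (0.041). Red blood cell markers summed to 6.1 and 4.99 RPKM in young and 14.1 and 14.4 in old GSH-high, with Hba-a1 at 1.03 and 1.15 (young) and 4.97 and 5.39 (old GSH-high); reads of the alpha-globin genes may be shared. The satellite cell genes summed to 6091 and 5765 RPKM in young and 4891 and 4873 in old GSH-high, above the sum of each of these lists in every library. The part of these cells in the other results was not tested.

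**Figure D5:**
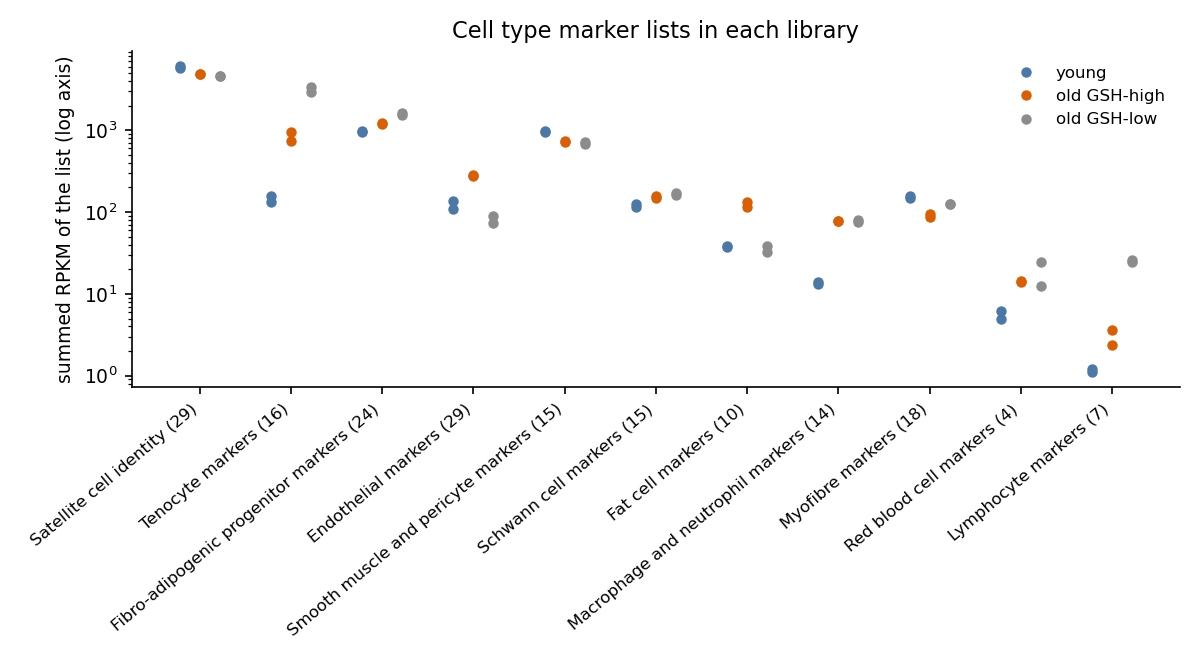
Summed RPKM on a log axis (y axis) of the satellite cell list and 10 marker lists of other cell types (x axis, with the number of genes in the table), 1 point per library. Tenocyte, endothelial, fat cell and macrophage sums were higher in both old GSH-high libraries than in both young libraries, and in old GSH-low the endothelial sums were under the young ones and the fat cell sums near them.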

How the data were processed

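The series holds 6 poly(A) RNA libraries (oligo(dT) priming, single-end 150 bp reads), analysed from 1 deposited table with 12067 genes and 1 RPKM column per library. Trim Galore, STAR, featureCounts of Subread and edgeR are named, with builds mm10 and GRCm38 and no versions, per the submitters' processing notes. How the counts were scaled, and whether strand was used, is not given in the sources used here. That the authors' values are RPKM was read from the values. For each gene the shortest whole-number length was sought that turned its values in all libraries, replaced zeros aside, into whole reads. Such a length was found for 100.00% of genes, within 0.02 reads and a relative 3e-07. Exon lengths of GENCODE M21 were used only to set a multiple of that length, for 97 genes. Of the symbols, 99.3% were in that annotation, and for 98.5% of those the length found was the annotated one. Cells of 0 reads hold 0.5 times the lowest other value of their gene in the deposited table (19 to 72 genes a library, 144 genes in all).

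Genes with at least 1 RPKM in 2 or more libraries (10609) were fitted as log2(RPKM + 1) with limma-trend (limma 3.58.1, R 4.3.3; 3 group means, 6 libraries, 3 residual degrees of freedom), with Benjamini-Hochberg adjustment over all of them and a threshold of 0.05, two-sided. The script was tested on simulated reads. Tables were made with Python 3.11.15, numpy 2.4.6, pandas 2.3.3 and matplotlib 3.10.9. Young and old libraries came from different animals, so their replicate numbers pair nothing. Whether old GSH-high and old GSH-low libraries of 1 number share a pool is not given in the sources used here, and no batch is given. They were fitted without a block.

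Named genes are the 15 largest called rises and falls (mean of at least 5 RPKM in the higher group, predicted genes left out), up to 4 called members per list and direction, up to 10 called factors of the lists, and a panel of 22. Markers that define cell types were added, as were a few genes picked after their values were seen (Isg15, Igtp, Hspa8, Hsp90ab1, Hsf1, Atf4, Ddit3, Il6ra, Il11ra1, Il6st, Pgls). The members and lists were chosen with earlier results of these data known. Promoters are those of the RefSeq table (GRCm38.p6). Alternatives changed the scaling, filter, pseudocount, tool, libraries and block.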

Additional observations from a re-analysis of the deposited data

Results flagged for a closer look

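For some genes that changed between young and old GSH-high, the change from young differed between the old fractions, because the contrast of old GSH-low minus old GSH-high passed the test as well (limma-trend, Benjamini-Hochberg adjusted p under 0.05). The differences below are old GSH-low minus old GSH-high on the log2(RPKM + 1) scale, with the standard error of the fit.

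Matrix and tendon genes went further from young in old GSH-low. The difference was 2.15 ± 0.13 for Tnmd, 2.01 ± 0.15 for Fmod, 1.96 ± 0.18 for Thbs4, 1.65 ± 0.10 for Mgp, 1.53 ± 0.12 for Mmp3, 1.34 ± 0.13 for Dcn, 1.24 ± 0.12 for Angptl7, 1.02 ± 0.12 for Igfbp6 and 0.60 ± 0.12 for Mkx, with adjusted p from 4.97e-05 to 0.0222. MHC class II genes did the same, by 2.63 ± 0.14 for Cd74, 2.28 ± 0.17 for H2-Ab1 and 2.04 ± 0.15 for H2-Aa. The lymphocyte markers summed to 2.38 and 3.57 RPKM in old GSH-high and 25.8 and 24.2 in old GSH-low. All 5 tested passed as higher in old GSH-low (median 1.84), but most can have entered the test only through old GSH-low, so the filter largely fixed this. The part of lymphocytes in these differences was not tested. Also further from young in old GSH-low were the interferon-stimulated genes Ifit3 (0.85 ± 0.10) and Ifi47 (0.78 ± 0.08), the secreted factors Il6 (1.21 ± 0.11) and Ccl11 (0.55 ± 0.08), the induced genes Socs3 (0.98 ± 0.11) and Nr4a2 (0.62 ± 0.10), the pericyte gene Rgs5 (0.78 ± 0.10), Cox8b (0.78 ± 0.15) and the protease gene Ctsk (1.62 ± 0.10), whose adjusted p ran from 4.97e-05 to 0.0207. Tnnt3, fast troponin T, differed by 1.56 ± 0.09 (adjusted p = 4.16e-05).

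Other genes that were lower in old GSH-high than in young stood higher in old GSH-low. The difference was 1.22 ± 0.12 for Cxcl10, 1.11 ± 0.10 for Fos, 0.70 ± 0.09 for Nr4a1 and 0.47 ± 0.09 for the apoptosis gene Bbc3. For the heat shock genes the difference was 0.70 ± 0.10 for Hspa1a, 0.64 ± 0.10 for Hspa1b and 0.42 ± 0.10 for Dnajb1. The adjusted p of these genes ran from 2.53e-04 to 0.0375.

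A further group was higher in old GSH-high than in old GSH-low. Fat cell and endothelial markers were in it: Cfd at -4.61 ± 0.17, Fabp4 at -2.49 ± 0.09, Adipoq at -0.77 ± 0.11, Pecam1 at -1.87 ± 0.18, Cdh5 at -1.37 ± 0.14, Kdr at -1.11 ± 0.16 and Ly6a at -2.03 ± 0.12. Cyp26a1 (-0.95 ± 0.11), Il33 (-0.64 ± 0.12), Rrm2 (-0.55 ± 0.09), Aldh3a1 (-0.37 ± 0.08) and the pentose phosphate genes G6pdx (-0.56 ± 0.08) and Pgd (-0.41 ± 0.09) were also lower in old GSH-low, with adjusted p up to 0.0351. Sbpl differed by -4.56 ± 0.99 (adjusted p = 0.0328), a value that rests on old GSH-high replicate 1. Whether old GSH-high and old GSH-low libraries of 1 number hold cells of the same animals is not given in the sources used here. With the replicate number as a block the calls of Dnajb1 (adjusted p = 0.0734), Pgd (0.0584) and Aldh3a1 (0.0855) were lost.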

How the results depend on the processing

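Across the alternatives no named gene passed the test in opposite directions (3 of all genes tested did). The balance of rises and falls turned in some counts. From 1598 rises and 1453 falls it went to 1625 and 2210 after removal of the trend over length and GC. With a filter of at least 5 RPKM it was 894 and 1160. It also turned without young replicate 2, and for ATF4 targets and one-carbon genes without young replicate 1. For lysosome and autophagy genes it went from 7 and 9 to 9 and 5 with libraries scaled by size alone. The 3051 calls ranged from 1493 to 3802 with single libraries left out, with 941 to 1840 rises and 552 to 1962 falls, and the genes past 2-fold from 415 to 483 (325 to 376 up and 85 to 114 down, against 432, 342 and 90). With the same ranges for lists, satellite cell falls ran from 4 to 9, immediate early falls from 15 to 25, heat shock falls from 16 to 19, endoplasmic reticulum falls from 3 to 12, glutathione rises from 7 to 16, NRF2 rises from 10 to 15, interferon rises from 43 to 49, MHC class I rises from 10 to 13, secreted factor rises from 23 to 28 and matrix rises from 26 to 31. Ribosomal protein falls ran from 2 to 73, complex I falls from 9 to 32 and falls of complexes II to V from 2 to 39. Of 331 named genes, 259 kept their side of the threshold without old GSH-high replicate 1 and 277 without replicate 2, the fewest of all settings. Of 104 list counts (each list and direction), 59 and 69 stayed within 1.5 times.

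A filter of at least 5 RPKM left fewer genes to test and gave 894 rises, 1160 falls and 26 interferon rises. With a pseudocount of 0.1, 861 genes passed 2-fold (688 up and 173 down), and with limma-voom on the recovered reads 923 (739 and 184), since low genes are then drawn in less. With the length and GC trend removed 2210 genes fell, 64 of them ribosomal protein genes, and with libraries scaled by size alone 23 ribosomal protein genes fell; the cause was not tested. Scaling by size alone moved the median of all genes by 0.048 on the log2 scale, and the share of rises among calls was 52.4% in the fit reported, 62.9% with size alone, 42.4% with the trend removed and 63% without old GSH-high replicate 1. The trend removal and the setting of replaced zeros to 0 were chosen after seeing the data. The planned edgeR test was not run, because the table holds no deposited counts.

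Young and old libraries come from different animals. Whether the old GSH-high and old GSH-low libraries of 1 number come from the same pool is not given in the sources used here. Deviations from the group means correlated over genes at -0.142 between the libraries numbered 1 of young and old GSH-high and at 0.0695 between those of old GSH-high and old GSH-low. With the replicate block 2559 genes passed and 23 ribosomal protein genes fell, and 15 of 104 list counts moved by over 1.5 times; 17 of 331 named genes lost their call and 1 gained one. Between the old fractions 479 genes passed with the replicate block (329 higher and 150 lower in old GSH-low), 461 of them among the 571 that passed without it, and 5 of the 48 genes of the text called there lost the call (Ddit3, Hes1, Dnajb1, Pgd and Aldh3a1); this fit was chosen after seeing the data.

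At 46919489 to 68677837 reads a library, 3 reads, the limit that a count of 0 allows, stand for 0.0437 to 0.0639 CPM. Differences of genes near 1 RPKM are drawn toward 0 by the added 1. With 2 libraries a group the error rests on 3 residual degrees of freedom and on the spread shared across genes.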

Other observations

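Adhesion genes rose in 13 of 40 and fell in 3. Beside Itgb5, the proteoglycan gene Gpc3 rose from 5.03 and 5.48 RPKM in young to 11.3 and 12.4 in old GSH-high (1.04 ± 0.09, limma-trend adjusted p = 1.07e-04) and the laminin chain Lama3 from 0.979 and 1.24 to 3.01 and 2.8 (0.89 ± 0.11, adjusted p = 4.89e-04). The falls numbered 5 without young replicate 2. Genes of the neuromuscular junction fell in 4 of 12 and rose in 1. Chrnd, the delta subunit of the acetylcholine receptor, fell from 2.87 and 1.96 to 0.972 and 1.04 RPKM (-0.76 ± 0.15, adjusted p = 0.00637), as Chrna1 did. The rises numbered 0 when young replicate 1 or either old GSH-high library was left out and 3 without young replicate 2, and the falls 2 without old GSH-high replicate 1. Among 17 homeobox and T-box genes of limb and muscle position 2 rose and 1 fell. Meox2 rose from 0.481 and 0.411 to 1.41 and 1.51 RPKM (0.77 ± 0.10, adjusted p = 7.28e-04) and Tbx4, of the hindlimb, fell from 4.6 and 5.45 to 3.03 and 2.76 (-0.63 ± 0.10, adjusted p = 0.00229). The rises numbered 1 without young replicate 1 or old GSH-high replicate 1, and the falls 2 when either young or either old GSH-low library was left out.

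Lysosome and autophagy genes rose in 7 of 45 and fell in 9. The protease gene Ctsk (cathepsin K) rose from 2.29 and 1.87 to 10.6 and 11.7 RPKM (1.98 ± 0.10, adjusted p = 3.77e-06) and was at 36.9 and 35.6 in old GSH-low. The rises numbered 4 when either old GSH-high library was left out. The falls numbered 1 without old GSH-high replicate 1, 2 without replicate 2, 15 without young replicate 2 and 5 without young replicate 1 or either old GSH-low library; with libraries scaled by size alone there were 9 rises and 5 falls. Cholesterol and lipid synthesis showed 3 rises and 2 falls among 27, with Scd1 (stearoyl-CoA desaturase) going from 6.88 and 7.56 to 10.9 and 10.9 RPKM (0.54 ± 0.08, adjusted p = 0.00199). Its falls numbered 0 when any one of the 4 old libraries was left out and 1 without young replicate 1, and its rises 5 without young replicate 2. Of 59 translation factors 10 fell, led by Eif2b4 from 13.4 and 12.7 to 7.92 and 8.49 RPKM (-0.61 ± 0.09, adjusted p = 0.00126), and 3 rose. The falls numbered 1 when either old GSH-high library was left out, 2 without young replicate 1 and 19 without young replicate 2. The rises numbered 1 without young replicate 1 or old GSH-high replicate 1 and 0 without old GSH-high replicate 2. Of 43 splicing factors 6 rose and 1 fell, and when either old GSH-high library was left out 0 rose and 0 fell; 2 fell without young replicate 2. Of 20 cytosolic tRNA synthetases 2 fell, and 0 did when young replicate 1 or either old GSH-high library was left out; none rose, but 1 did without young replicate 2. The share of all genes tested was 15.1% for rises and 13.7% for falls.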
